A study of Mus musculus with 8 samples.

Results

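The actin cytoskeleton genes are 51 genes chosen by name for their role in building, turning over, cross-linking or anchoring actin filaments. The choice was made with earlier results of these data known. The genes were found among 47937 gene IDs, 48 of them by the symbols in the authors' table and 3 (Marcks, Zyx and Myl9) by reference names. They comprise 2 actins, 10 genes of the monomer pool and filament turnover, 9 of Arp2/3-driven nucleation, 13 of capping and cross-linking, 8 of tropomyosin and myosin II, 3 of adhesion links and 5 of membrane links. Vim, which encodes the intermediate filament protein vimentin and not an actin-binding protein of the filament core, was kept as the last member. In exonic reads 46 members passed the filter on low counts, among 12889 genes tested, and in intronic reads 42 did, among 11229.

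The libraries came from mouse pro-B cells transformed with the Abelson murine leukemia virus (A-MuLV) and grown in culture, of the genotype EBF1-dTAG_N. In these cells the endogenous Ebf1, a transcription factor that specifies B-lineage identity, was replaced by an exogenous, modified gene that carries a tag recognised by the degrader dTAG-13. Stranded total RNA was sequenced in 4 libraries of cells given DMSO and 4 of cells given 0.5 µM dTAG-13 for 6 hours. The DMSO libraries are titled as the start of the time course and labelled as DMSO for 6 hours. Both groups carry the tagged factor and no cells with untagged EBF1 were analysed here, so loss of EBF1 and any other action of dTAG-13 cannot be told apart. RNA does not measure the EBF1 protein, and these libraries do not show how much of it was lost. The labels call the 4 samples of a group biological replicates without saying what was done separately, so p-values measure the spread between these samples, which may be technical.

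Actin is the most abundant protein of the cortex in most animal cells. Monomers, held in reserve by thymosins and profilin, are added to filaments whose branching is started by the Arp2/3 complex under the control of WASP-family proteins, and cofilin and its partners take old filaments apart. Tropomyosins coat filaments and set which other proteins bind them, myosin II pulls on them, and ezrin, radixin and moesin tie them to the plasma membrane. In developing B cells this cortex serves migration, adhesion to stroma and receptor organisation. Expression of many of these genes in many cell types depends on serum response factor (SRF), which binds a DNA element called the CArG box, with the actin-sensing MRTF coactivators.

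Each library held 28982316 to 38999496 exonic reads, and 20.4% to 27.3% of the reads over genes lay outside exons. The genes Gm26917 and Gm42418 took 25.7% to 29.3% of the exonic reads, which stayed in the totals used for CPM and shares of reads. Of the 12 pro-B markers, 12 were detected, 10 were lower and 1 (Ebf1) was higher after dTAG-13 (edgeR quasi-likelihood test, Benjamini-Hochberg adjusted p below 0.05). Of all tested genes, 14% were lower and 14.3% higher. Ebf1 is the gene that was replaced in these cells, so its reads are not those of an unmodified marker gene. In intronic reads 9 of 11 tested markers were lower and 0 higher, beside 8.5% and 8.26% of all tested genes. The summed level of the 12 markers was 3807 to 3920 CPM (exonic reads scaled to a common library total) with DMSO and 3013 to 3212 CPM with dTAG-13. The 15 stromal and smooth muscle markers summed to 0.0270 to 0.138 CPM with DMSO and 0.0572 to 0.354 CPM with dTAG-13, with 8 at 0 in all libraries. The 12 myeloid markers summed to 4.08 to 4.62 CPM with DMSO and 3.52 to 4.46 CPM with dTAG-13, with 4 at 0. Only 2 myeloid markers had enough reads for the test, of which 1 was higher after dTAG-13 and 0 were lower. Of 8 T and NK markers, 7 were at 0. Among the members, dTAG-13 replicate 4 had the lowest CPM of its group for 38 of 46 (82.6%), against 30.2% of all tested genes, and DMSO replicate 3 the lowest of its group for 23 (50%), against 24.3%. These are also the libraries of their groups with the largest share of reads outside exons, 27.3% and 26.1%, and the part of this in the results was not tested.

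After 6 hours of dTAG-13, RNA of the actin cytoskeleton genes was higher for most members. Of the 46 tested in exonic reads, 28 (60.9%) rose and 7 (15.2%) fell, beside 14.3% and 14% of all tested genes. The members were chosen with earlier results of these data known, so these shares are no test of the list. The median change of the tested members was 0.21 on the log2 scale, beside 0.00 over all tested genes. Most changes were small. Cnn2, which encodes calponin 2, rose 5.07-fold from a very low level, while Cnn3, Actg1, Tpm4, Flna and Lcp1 rose between 1.46-fold and 1.80-fold, and Arpc5, a subunit of the Arp2/3 complex, fell 1.37-fold. As a share of all exonic reads, the members together took 1.48% to 1.53% in the DMSO libraries and 1.88% to 1.89% in the dTAG-13 libraries. The ranges were also apart without Actb, at 1.04% to 1.07% against 1.26% to 1.27%. CPM are shares of a library, and in these bulk samples a change in the make-up of the culture and a change of RNA per cell cannot be told apart.

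**Figure D1:**
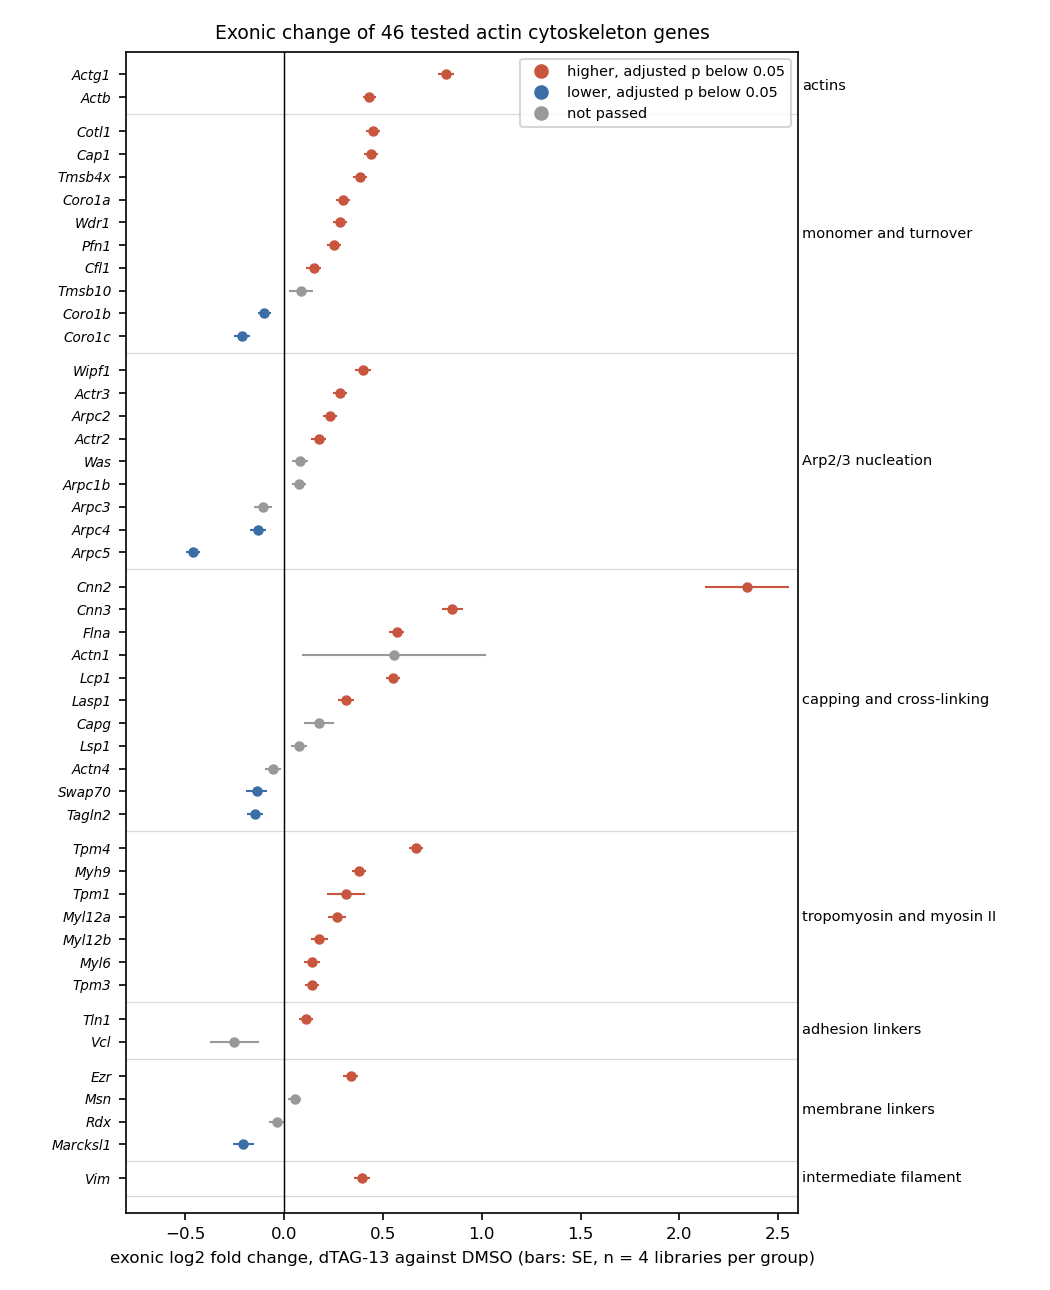
Fitted log2 change of exonic RNA (dTAG-13 against DMSO, horizontal axis) for the 46 tested members, grouped by role, with bars of 1 standard error and colours for genes that passed an edgeR adjusted p of 0.05. Of the members, 28 lie above 0 and passed, 7 lie below 0 and passed, and Cnn2 stands apart at 2.34.

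In 28 members the 4 dTAG-13 libraries all lay above the 4 DMSO libraries, and in 4 members all lay below, beside 14.2% and 13.5% of all tested genes. In 17 members the fitted change passed and was at least 0.3 on the log2 scale, and the other 18 that passed changed by between -0.21 and 0.30. Without dTAG-13 replicate 4 the counts were 29 higher and 5 lower, without DMSO replicate 3 they were 28 and 6, and without dTAG-13 replicate 2 the lower members numbered 3. When the null hypothesis was a change of at most 1.2-fold, 13 members were higher and 1, Arpc5, was lower. Of all 12889 tested genes, 601 were higher and 486 lower by that test. In whole-gene counts, which add intronic reads, 28 members were higher and 3 lower, beside 12% and 11.4% of all genes tested so; Cfl1, Coro1b, Arpc4, Tagln2, Tln1 and Marcksl1 missed the threshold there.

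Promoter sequence was read for the members with an entry in the RefSeq table of build GRCm38.p6, which covered 46 of the 51 members in 57 windows. Actb, Coro1b, Cotl1, Lsp1 and Marcks had no entry, so their promoters were not searched for any motif. The search covered 250 bases before each start, on both strands, for the CArG box in its strict form and for a motif bound by early B-cell factors, TCCC and GGGA set 2 bases apart, called the EBF motif here. The CArG box occurred in 7 windows (12.3%), 1 each of Actg1, Arpc4, Cnn2, Lima1, Myl6, Myl9 and Vcl, beside 1.47% of 32841 promoter windows of the same length. Of these genes, Actg1, Cnn2 and Myl6 rose in exonic reads, Arpc4 fell, Vcl did not pass, and Lima1 and Myl9 were not tested for change. The windows of Cnn3, Tpm4, Flna and Lcp1, which also rose, held no CArG box. The boxes of Lima1 and Myl6 lie in windows inside the annotated gene, before an internal RefSeq start. The other Myl6 window held no CArG box. Whether a motif goes with the direction of change was not tested. The EBF motif occurred in 2 windows (3.51%), those of Arpc5 and Vcl, beside 0.78% of all windows. The GC box GGGCGG, searched in the same way, occurred in 64.9% of the member windows beside 32.7% of all windows, so the member windows also differed from all windows in a motif of another kind. A match is a stretch of letters and no binding was measured here.

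The promoters of Actg1 and Cnn2, among the genes that rose most, of Arpc5, the gene that fell most, and of Vcl, which holds both motifs but did not pass the test, are shown 5′ to 3′ on the strand of the gene, with the motif matches in capitals. The Actg1 stretch is chr11:120348543-120348745, minus strand, and its CArG box ends 80 bases before the RefSeq start. The Cnn2 stretch is chr10:79988350-79988583, plus strand, with the box ending 46 bases before the start. The Arpc5 stretch is chr1:152766292-152766541, plus strand, and its EBF motif ends 17 bases before the start. The Vcl stretch is chr14:20929148-20929397, plus strand, with the CArG box ending 217 bases and the EBF motif 140 bases before the start, so that the matches do not overlap. The 47 bases of the Actg1 window and the 16 of the Cnn2 window nearest the RefSeq start lie inside annotated transcripts and were left out.
Actg1: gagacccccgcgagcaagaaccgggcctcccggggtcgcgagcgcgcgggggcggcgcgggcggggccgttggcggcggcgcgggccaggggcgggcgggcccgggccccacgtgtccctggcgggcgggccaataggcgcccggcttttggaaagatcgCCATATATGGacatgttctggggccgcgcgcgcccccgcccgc
Cnn2: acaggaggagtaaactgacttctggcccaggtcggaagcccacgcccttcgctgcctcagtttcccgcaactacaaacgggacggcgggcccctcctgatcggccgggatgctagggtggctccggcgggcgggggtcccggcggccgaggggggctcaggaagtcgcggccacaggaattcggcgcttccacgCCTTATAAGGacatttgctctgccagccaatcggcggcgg
Arpc5: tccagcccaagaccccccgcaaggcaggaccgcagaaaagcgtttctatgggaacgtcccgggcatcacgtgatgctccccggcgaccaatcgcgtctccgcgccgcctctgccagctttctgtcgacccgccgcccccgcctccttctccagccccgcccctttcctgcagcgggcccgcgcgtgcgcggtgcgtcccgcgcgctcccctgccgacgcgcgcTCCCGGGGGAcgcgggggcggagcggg
Vcl: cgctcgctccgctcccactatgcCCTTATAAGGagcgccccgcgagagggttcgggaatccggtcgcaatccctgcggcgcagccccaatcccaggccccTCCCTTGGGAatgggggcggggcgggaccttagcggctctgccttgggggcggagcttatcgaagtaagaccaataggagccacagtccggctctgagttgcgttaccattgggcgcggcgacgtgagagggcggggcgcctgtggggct

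Both cytoplasmic actins rose, and Actg1 rose by a larger factor than Actb. Actb (ENSMUSG00000029580.14, chromosome 5, 142903115 to 142906754, minus strand, GRCm38) encodes beta-actin, the main non-muscle actin. Its exonic level was 4499, 4556, 4359 and 4722 CPM in DMSO replicates 1 to 4 and 6325, 6057, 6303 and 5769 CPM in dTAG-13 replicates 1 to 4. Every dTAG-13 library lay above every DMSO library, and the change was 0.43 ± 0.03 (SE, n = 4 per group) on the log2 scale, or 1.35-fold (edgeR adjusted p = 2.1e-11). Actg1 (ENSMUSG00000062825.15, chromosome 11, 120345690 to 120348542, minus strand), whose promoter is printed with its CArG box, encodes gamma-actin. It was at 288, 298, 270.0 and 291 CPM with DMSO and at 523, 493, 529 and 476 CPM with dTAG-13. The groups were far apart, and the change was 0.82 ± 0.04 or 1.76-fold (edgeR adjusted p = 4.0e-15). The ratio of Actb to Actg1 CPM fell from 15.3 to 16.2 across the DMSO libraries to 11.9 to 12.3 across the dTAG-13 libraries. Of the 50-base stretches of Actg1 transcripts, 37.4% also occur in transcripts of other genes, mainly a processed copy annotated as Gm12715, and 9.12% of those of Actb do, so the split of reads between copies is uncertain for Actg1.

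Of the 10 genes of the monomer pool and filament turnover, 7 (70%) rose and 2 (20%) fell, beside 14.3% and 14% of all tested genes. Tmsb4x encodes thymosin beta 4, which sequesters actin monomers, and its level was 377, 387, 372 and 369.6 CPM with DMSO and 495, 486, 510.4 and 473 CPM with dTAG-13. The groups did not overlap, and the rise was 0.38 ± 0.03 on the log2 scale (edgeR adjusted p = 1.0e-09). Its paralog Tmsb10 did not pass, at 0.08 ± 0.06 (edgeR adjusted p = 0.350), and 27.0% of its 50-base stretches are shared with other genes. Pfn1 encodes profilin, which feeds monomers to growing filament ends, and went from 577, 590.3, 579.9 and 593 CPM to 707, 704, 725 and 650.3 CPM. These groups were also apart, with a rise of 0.25 ± 0.04 (edgeR adjusted p = 2.5e-06).

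Cap1, whose product recycles monomers released by cofilin, and Cotl1, which encodes coactosin-like protein, a filament-binding protein, rose most within this group. Cap1 was at 313, 308, 315 and 324 CPM with DMSO and at 437, 421, 442 and 409 CPM with dTAG-13, a rise of 0.44 ± 0.04 (edgeR adjusted p = 1.3e-10). Cotl1 was at 146, 148, 147 and 140.2 CPM with DMSO and at 199, 197, 206 and 192 CPM with dTAG-13, a rise of 0.45 ± 0.04 (edgeR adjusted p = 1.9e-10). In both genes the highest DMSO library lay well below the lowest dTAG-13 library. Cfl1, which encodes cofilin, a filament-severing protein, also rose. Its levels of 793, 816, 768 and 791 CPM with DMSO and 925, 867, 904 and 818 CPM with dTAG-13 nearly touched, and the rise was 0.15 ± 0.04 (edgeR adjusted p = 0.00239). Exons of Snx32 on the opposite strand overlap 16.5% of the Cfl1 exons, so its reads depend in part on the strand option at counting, which is not known. Wdr1, a cofilin cofactor, rose by 0.28 ± 0.04 (edgeR adjusted p = 4.5e-07).

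The 3 type I coronins, which bind filaments and Arp2/3 complex, moved in different directions. Coro1a, the coronin of blood cells, was at 599, 590.1, 576 and 589 CPM with DMSO and at 746, 719, 753 and 677 CPM with dTAG-13, and rose by 0.30 ± 0.04 (edgeR adjusted p = 1.9e-07). Coro1c was at 133, 134, 138 and 144 CPM with DMSO and at 128, 118, 116 and 113 CPM with dTAG-13, and fell by 0.21 on the log2 scale (SE 0.04, edgeR adjusted p = 2.5e-04). Coro1b was at 211, 209, 214 and 214 CPM with DMSO and at 202, 199.7, 199 and 191 CPM with dTAG-13, and fell by 0.10 (SE 0.04, edgeR adjusted p = 0.0346). None of the 3 coronins overlapped between the groups. The Coro1b call was lost without any 1 of DMSO replicates 1, 3 and 4 or dTAG-13 replicates 2, 3 and 4 (edgeR adjusted p between 0.0513 and 0.0921). Annotated exons of Ptprcap on the same strand overlap 13.5% of the Coro1b exons, so some of its reads are uncertain.

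Among the 9 genes of Arp2/3 nucleation, 4 (44.4%) rose and 2 (22.2%) fell, beside 14.3% and 14% of all tested genes. Subunits of the complex went both ways. The complex nucleates branches from the side of a filament. Arpc5 (ENSMUSG00000008475.13, chromosome 1, 152766542 to 152775597, plus strand), which encodes a small subunit of it, was at 403, 389.7, 382 and 388 CPM with DMSO and at 296, 277, 289 and 275 CPM with dTAG-13. All dTAG-13 libraries lay below all DMSO libraries, and the gene fell by 0.46 on the log2 scale (SE 0.04, 1.37-fold, edgeR adjusted p = 6.3e-11). Its promoter is the one printed with the EBF motif close to the start. Actr3 and Actr2, which encode the actin-related subunits that template the new branch, rose by 0.28 ± 0.04 (edgeR adjusted p = 5.4e-07) and 0.18 ± 0.04 (edgeR adjusted p = 6.0e-04). Arpc2, of the core that contacts the mother filament, rose by 0.23 ± 0.04 (edgeR adjusted p = 1.7e-05). Arpc4, its partner in that core, fell by 0.13 (SE 0.04, edgeR adjusted p = 0.0117), with groups that overlapped, and was past the threshold no longer without dTAG-13 replicate 2 (edgeR adjusted p = 0.0531). Arpc1b and Arpc3 did not pass, at 0.07 ± 0.04 (edgeR adjusted p = 0.138) and -0.11 ± 0.05 (edgeR adjusted p = 0.0903), and Arpc1b passed without dTAG-13 replicate 4 (0.10, edgeR adjusted p = 0.0340). Reads of Actr3 and Arpc4 are partly uncertain, since 26.3% of the 50-base stretches of Actr3 occur in other genes' transcripts and Ttll3 exons on the same strand overlap 12.2% of those of Arpc4.

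Wipf1, which encodes the WASP-binding protein WIP that stabilises WASP, was at 113, 109.7, 110.4 and 116 CPM with DMSO and at 153, 149, 151 and 140.4 CPM with dTAG-13. The groups were apart and the rise was 0.40 ± 0.04 (edgeR adjusted p = 4.2e-09). Was itself, which encodes the activator of the Arp2/3 complex in blood cells, did not pass, at 0.08 ± 0.04 (edgeR adjusted p = 0.151).

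Of the 11 tested genes of capping and cross-linking, 5 (45.5%) rose and 2 (18.2%) fell, beside 14.3% and 14% of all tested genes. This group held the largest change of all members. Cnn2 (ENSMUSG00000004665.10, chromosome 10, 79988584 to 79996062, plus strand) encodes calponin 2, a filament-stabilising protein of non-muscle cells, and its promoter is printed with its CArG box. It was at 1.21, 0.898, 0.574 and 0.865 CPM with DMSO and at 4.30, 4.92, 4.65 and 3.89 CPM with dTAG-13. The lowest dTAG-13 library was above every DMSO library, and the rise was 2.34 ± 0.21 on the log2 scale (edgeR adjusted p = 1.3e-09). Cnn3 (chromosome 3, 121426497 to 121458207, plus strand), which encodes calponin 3, was at 45.4, 55.1, 53.3 and 53.6 CPM with DMSO and at 94.7, 98.2, 94.8 and 86.7 CPM with dTAG-13. It rose by 0.85 ± 0.05, or 1.80-fold (edgeR adjusted p = 4.3e-13), with no overlap of the groups. Of its 50-base stretches 10.3% occur in other genes' transcripts and Gm42928 on the opposite strand overlaps 17.7% of its exons, while none of those of Cnn2 do.

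Lcp1 (chromosome 14, 75131101 to 75230842, plus strand) encodes L-plastin, the filament-bundling protein of white blood cells. It was at 569.8, 579, 557 and 565 CPM with DMSO and at 827, 826, 874 and 799.6 CPM with dTAG-13, and rose by 0.55 ± 0.03, or 1.46-fold (edgeR adjusted p = 5.7e-13). Flna (chromosome X, 74223461 to 74249820, minus strand) encodes filamin A, which joins filaments into networks. It was at 315, 283, 306 and 304 CPM with DMSO and at 446, 449, 455 and 442 CPM with dTAG-13, and rose by 0.57 ± 0.04, or 1.48-fold (edgeR adjusted p = 1.1e-12). For both genes the spread within a group was small beside the gap between groups. Lasp1, a LIM and SH3 domain protein of filament-rich structures, was at 80.6, 82.4, 75.6 and 86.0 CPM with DMSO and at 102, 102, 102 and 96.9 CPM with dTAG-13, and rose by 0.31 ± 0.04 (edgeR adjusted p = 1.1e-06).

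The genes of this group that fell were Tagln2 and Swap70. Tagln2, which encodes the calponin relative transgelin 2, fell by 0.15 (SE 0.04, edgeR adjusted p = 0.00726), and Swap70, which encodes a filament-binding protein of B cells, fell by 0.14 (SE 0.05, edgeR adjusted p = 0.0474). Neither call was stable. Tagln2 missed the threshold without dTAG-13 replicate 2 (edgeR adjusted p = 0.0545), and Swap70 missed it without DMSO replicate 1 or 4 or dTAG-13 replicate 2 or 4 (edgeR adjusted p between 0.118 and 0.180). Capg, a capping protein, did not pass, at 0.18 ± 0.07 (edgeR adjusted p = 0.0770), but passed without dTAG-13 replicate 2 (edgeR adjusted p = 0.0444). The cross-linker Actn4 did not pass, at -0.06 ± 0.04 (edgeR adjusted p = 0.340), and its paralog Actn1 was barely present, with means of 0.217 and 0.321 CPM (edgeR adjusted p = 0.430). Lsp1, a filament-binding protein of lymphocytes, was at 53.8, 56.6, 54.9 and 54.7 CPM with DMSO and at 58.0, 58.1, 57.3 and 58.3 CPM with dTAG-13. The groups did not overlap, but the change of 0.07 ± 0.04 did not pass (edgeR adjusted p = 0.189).

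All 7 tested genes of tropomyosin and myosin II (100%) rose, beside 14.3% of all tested genes. Tpm1, Tpm3, Myl6, Myl12a and Myl12b did not pass the test against 1.2-fold. In intronic reads Tpm1, Tpm3 and Myl6 did not pass. Tpm4 (chromosome 8, 72134975 to 72153142, plus strand), which encodes a short tropomyosin of non-muscle cells, was at 262, 272, 264 and 277 CPM with DMSO and at 435, 414, 432 and 429 CPM with dTAG-13. It rose by 0.67 ± 0.03, or 1.59-fold (edgeR adjusted p = 1.8e-14), and the groups were far apart. Tpm3, of the same family, rose by 0.14 ± 0.04 (edgeR adjusted p = 0.00339). Tpm1 was low, at 7.78, 8.88, 8.45 and 9.90 CPM with DMSO and 10.4, 11.6, 10.8 and 10.7 CPM with dTAG-13, and rose by 0.31 ± 0.09 (edgeR adjusted p = 0.0137). Without DMSO replicate 1 Tpm1 missed the threshold (edgeR adjusted p = 0.0548). Other genes' transcripts hold 23.2% of the 50-base stretches of Tpm3 and 11.7% of those of Tpm4, against 0 for Tpm1.

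Myh9, which encodes the heavy chain of non-muscle myosin IIA, was at 566, 531, 547 and 567 CPM with DMSO and at 751, 713, 721 and 687 CPM with dTAG-13. It rose by 0.38 ± 0.04, or 1.30-fold (edgeR adjusted p = 2.2e-09), with no overlap. Its light chains, which stabilise the neck of the heavy chain and regulate the motor, rose as well. The regulatory light chains Myl12a and Myl12b rose by 0.27 ± 0.05 (edgeR adjusted p = 4.3e-05) and 0.18 ± 0.04 (edgeR adjusted p = 0.00281), and the essential light chain Myl6 by 0.14 ± 0.04 (edgeR adjusted p = 0.00933). The groups of Myl12b overlapped, with a DMSO library at 110.5 CPM and a dTAG-13 library at 107.4 CPM. Of the 50-base stretches of Myl12a and Myl12b, 16.4% and 25.4% occur in other genes' transcripts, and another annotated gene on the same strand (ENSMUSG00000117098) overlaps 26.7% of the Myl12b exons, so some of their reads are uncertain.

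Of the genes that link filaments to adhesions 1 of 2 tested rose, and of those that link them to the membrane 1 of 4 rose and 1 fell. Over all tested genes 14.3% rose and 14% fell. Ezr encodes ezrin, and was at 258, 266, 253 and 259 CPM with DMSO and at 345, 318, 334 and 310.5 CPM with dTAG-13. It rose by 0.34 ± 0.04, or 1.26-fold (edgeR adjusted p = 6.0e-08), and the groups did not overlap. Moesin (Msn) and radixin (Rdx), of the same family, did not pass, at 0.05 ± 0.03 (edgeR adjusted p = 0.286) and -0.04 ± 0.04 (edgeR adjusted p = 0.539). Marcksl1, a membrane-bound filament cross-linker, fell by 0.21 (SE 0.05, edgeR adjusted p = 0.00271), from 106, 103, 87.5 and 102 CPM to 92.6, 87.5, 83.9 and 81.4 CPM, with groups that overlapped. Tln1, which encodes talin, the protein that activates integrins, rose by 0.11 ± 0.03 (edgeR adjusted p = 0.0186). It missed the threshold without DMSO replicate 2 (edgeR adjusted p = 0.0505) and without dTAG-13 replicate 1 (edgeR adjusted p = 0.0576). Vcl, which encodes vinculin and holds both motifs in its promoter, did not pass, at -0.25 ± 0.12 (edgeR adjusted p = 0.141). Exons of Ap3m1 on the opposite strand overlap 25.5% of the Vcl exons, and since the strand option at counting is not known, some of its reads are uncertain.

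Vim was at 272, 286, 261 and 275 CPM with DMSO and at 369.6, 347, 377 and 345 CPM with dTAG-13. The groups did not overlap and the rise was 0.39 ± 0.04, or 1.31-fold (edgeR adjusted p = 5.3e-09). Pls3, Myl9, Zyx and Marcks had no exonic read in any library. At these depths a count of 0 allows up to 3 reads, or 0.0765 to 0.104 CPM per library, a limit that covers counting error only. Lima1 had 11 exonic reads in total. These 5 members were not tested.

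**Figure D2:**
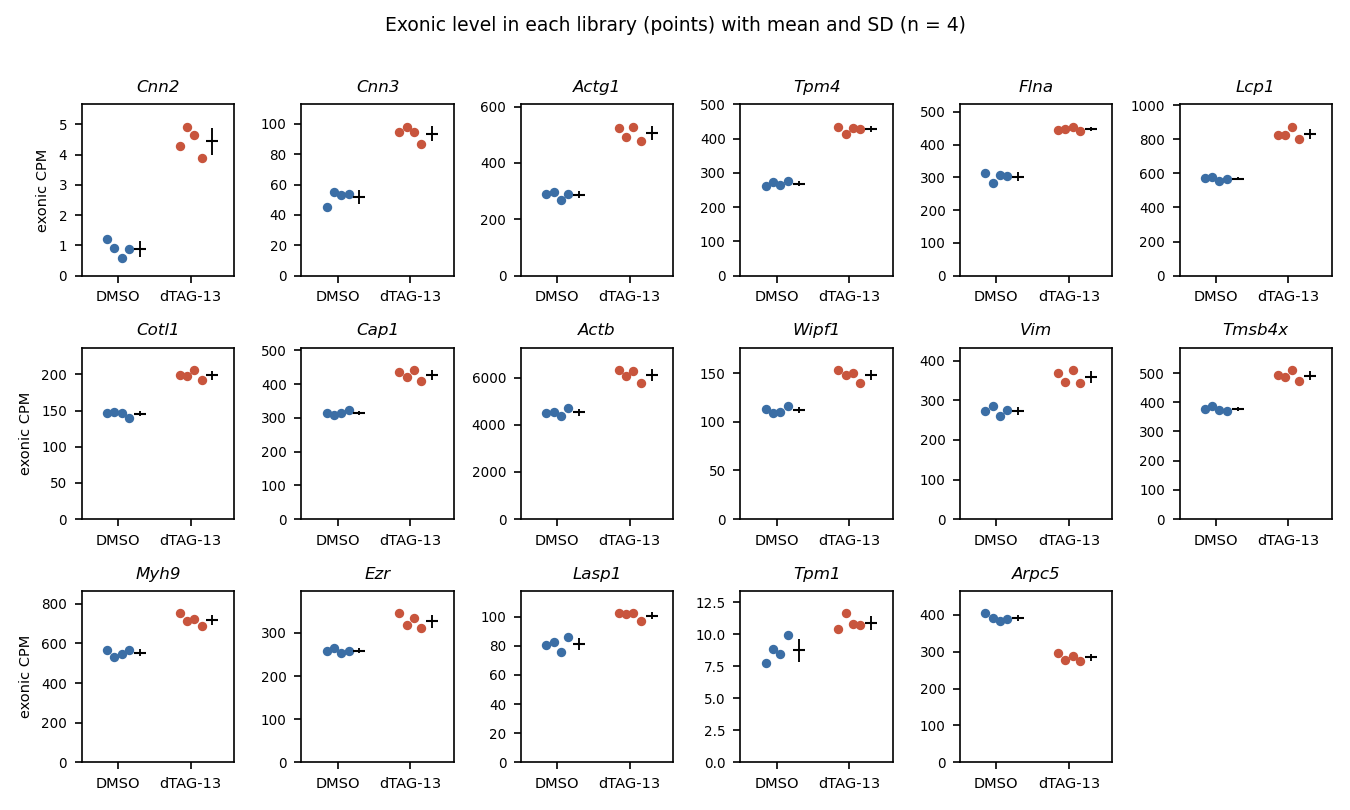
Exonic CPM (vertical axis, from 0) of the 17 members that passed with a change of at least 0.3 on the log2 scale, 1 panel per gene, with a point for each library in the order of the replicate numbers, a cross for the mean and a bar for the SD (n = 4 per group). In 16 panels the dTAG-13 points all lie above the DMSO points, and in the panel of Arpc5 all lie below.

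Per kilobase of annotated exon, the DMSO level of the 46 tested members spanned from 1692 ± 56.1 CPM per kb for Actb to 0.0392 CPM per kb for Actn1. Cfl1 (278 ± 6.92 CPM per kb) and Tmsb4x (274 ± 5.42) followed Actb and overlapped each other across libraries, then came Pfn1 (243 ± 3.22), Coro1a (211 ± 3.47) and Arpc5 (172 ± 3.88), each apart from the next (SD, n = 4). With dTAG-13, Tmsb4x was at 358 CPM per kb, Cfl1 at 309, Pfn1 at 290, Coro1a at 260.0 and Arpc5 at 125. At the low end lay Tpm1 (1.35 CPM per kb with DMSO), Vcl (0.864) and Cnn2 (0.360). Cfl1, Vcl and Actn1 have another ID version in the annotation that gave the exon lengths, so their values per kb are less certain.

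Intronic reads, which come largely from unspliced transcripts, were compared to ask whether newly made RNA moved as the mature RNA did. Of 42 members tested in intronic reads, 19 (45.2%) rose and 1 (2.38%), Arpc5, fell, beside 8.26% and 8.5% of all tested genes, with a median of 0.24 on the log2 scale beside 0.00 over all. Of these 20, 19 had also passed in exonic reads and the other was Lsp1. In 21 members the dTAG-13 libraries all lay above the DMSO libraries and in 2 all below, beside 9.51% and 10% of all tested genes. When intronic counts were scaled with the library sizes of the exonic reads, 8 members were higher (Actg1, Cap1, Cotl1, Flna, Lcp1, Cnn3, Tpm4 and Vim) and Arpc5 was lower. Of all 11229 tested genes, 416 were higher and 428 lower at that scaling. The test against 1.2-fold also left 8 members higher, beside 418 of all tested genes.

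Actg1 intronic reads were at 71.8, 78.2, 65.8 and 79.9 CPM with DMSO and at 149.8, 132, 144 and 114 CPM with dTAG-13, a rise of 0.87 ± 0.08 on the log2 scale (edgeR adjusted p = 2.4e-08). Arpc5 intronic reads were at 99.5, 98.6, 97.0 and 94.0 CPM with DMSO and at 75.7, 72.3, 67.6 and 66.1 CPM with dTAG-13, a fall of 0.47 (SE 0.07, edgeR adjusted p = 1.7e-05). In both genes the groups were apart in introns as they were in exons. The intronic rise was 0.76 ± 0.09 for Cnn3 (edgeR adjusted p = 5.7e-07), 0.72 ± 0.12 for Flna (edgeR adjusted p = 1.3e-04), 0.61 ± 0.06 for Tpm4 (edgeR adjusted p = 2.4e-08) and 0.57 ± 0.06 for Lcp1 (edgeR adjusted p = 2.4e-07). Cap1 rose by 0.51 ± 0.07 in introns (edgeR adjusted p = 3.0e-06), Cotl1 by 0.51 ± 0.09 (edgeR adjusted p = 8.4e-05), Myh9 by 0.44 ± 0.06 (edgeR adjusted p = 4.6e-06) and Ezr by 0.32 ± 0.06 (edgeR adjusted p = 4.1e-04). Actb rose by 0.46 ± 0.13 (edgeR adjusted p = 0.0193) but missed the threshold without DMSO replicate 4 (edgeR adjusted p = 0.0667) and without dTAG-13 replicate 1 (edgeR adjusted p = 0.0796). The Cnn2 introns held too few reads for the test.

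Other intronic rises that passed were those of Vim, Wipf1, Lasp1, Coro1a, Actr3, Arpc2, Myl12a and Myl12b. Coro1a missed the threshold without DMSO replicate 4 (edgeR adjusted p = 0.0671), or without dTAG-13 replicate 2 (edgeR adjusted p = 0.0652). Myl12a missed the threshold without any 1 of DMSO replicates 2 and 3 or dTAG-13 replicates 1 and 2 (edgeR adjusted p between 0.0582 and 0.0917). Tmsb4x and Pfn1 had few intronic reads, and their intronic values of 0.37 ± 0.25 and 0.39 ± 0.22 did not pass (edgeR adjusted p = 0.363 and 0.273). Coro1c and Swap70 did not pass in introns, at -0.16 ± 0.07 and -0.19 ± 0.07 (edgeR adjusted p = 0.140 and 0.0543), and both passed as lower without DMSO replicate 2 (edgeR adjusted p = 0.0481 and 0.0330).

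Whether the 2 read classes changed by unequal amounts was tested in 1 model over both read classes with the library as a block. Of 42 members, 0 passed (edgeR adjusted p below 0.05), beside 0.309% of 10026 genes (0.16% with an exonic minus intronic difference above 0 and 0.15% below 0), and 1, Lsp1, had an unadjusted p below 0.05. With DESeq2 size factors in the same edgeR test 0 members passed as well. Lsp1 intronic reads were at 37.7, 54.1, 44.1 and 46.7 CPM with DMSO and at 60.9, 61.9, 67.1 and 62.1 CPM with dTAG-13. They rose by 0.47 ± 0.09 (edgeR adjusted p = 6.4e-04), and the exonic change was smaller by 0.40 ± 0.10 (edgeR adjusted p = 0.0765). That difference passed without DMSO replicate 2, the DMSO library with the highest intronic value (-0.47, edgeR adjusted p = 0.0350). For Actg1 the exonic minus intronic difference was -0.05 ± 0.07, for Actb -0.02 ± 0.13 and for Arpc5 0.00 ± 0.06. The median standard error of this difference over the members was 0.08. Differences well above that size could be missed, since that of Lsp1, 0.40 in size, did not pass. The test therefore does not show that the 2 read classes changed equally.

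**Figure D3:**
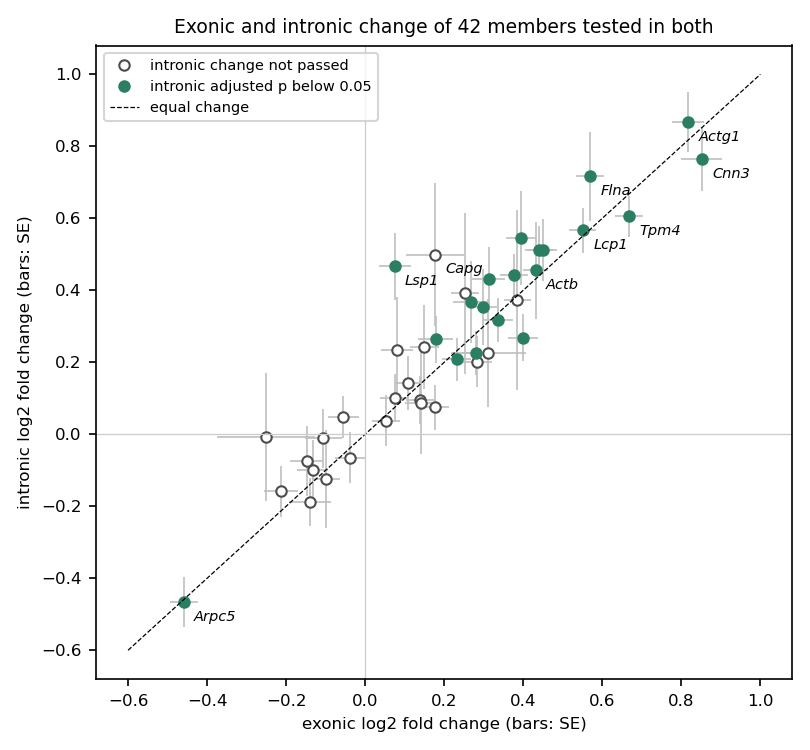
Fitted intronic log2 change (vertical axis) against fitted exonic log2 change (horizontal axis), dTAG-13 against DMSO, for the 42 members tested in both read classes, with bars of 1 standard error, filled points where the intronic change passed and a dashed line of equal change. Actg1, Cnn3, Flna and Tpm4 lie at the upper right, Arpc5 at the lower left, and Lsp1 above the line.

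Ratios within a library, which do not depend on library size, were described for 12 pairs of paralogs or partners among the members. In 8 pairs the 4 DMSO and 4 dTAG-13 ratios did not overlap. No share over other pairs of genes was computed, so this count has nothing to be judged against. Of all tested single genes, 14.2% were apart with dTAG-13 higher and 13.5% with dTAG-13 lower. Tpm3 to Tpm4 went from a mean of 1.08 (1.06 to 1.12) to 0.748 (0.713 to 0.773). Coro1a to Coro1c went from 4.28 (4.08 to 4.50) to 6.10 (5.82 to 6.52), and Coro1a to Coro1b from 2.78 (2.69 to 2.85) to 3.65 (3.55 to 3.78). Tmsb4x to Tmsb10 went from 10.2 to 10.9 across the DMSO libraries to 11.8 to 14.3 across the dTAG-13 libraries. Ezr to Msn went from 0.456 (0.442 to 0.468) to 0.554 (0.534 to 0.576), and Msn to Rdx from 3.61 (3.57 to 3.65) to 3.84 (3.76 to 3.92). Cnn2 to Cnn3 went from 0.0166 (0.0108 to 0.0266) to 0.0473 (0.0449 to 0.0501), and the last was Actb to Actg1. The ratios of Actr2 to Actr3, Myl12a to Myl12b, Tpm1 to Tpm3 and Actn1 to Actn4 overlapped between the groups. A ratio that moved shows unequal change of the pair and was given no test.

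**Figure D4:**
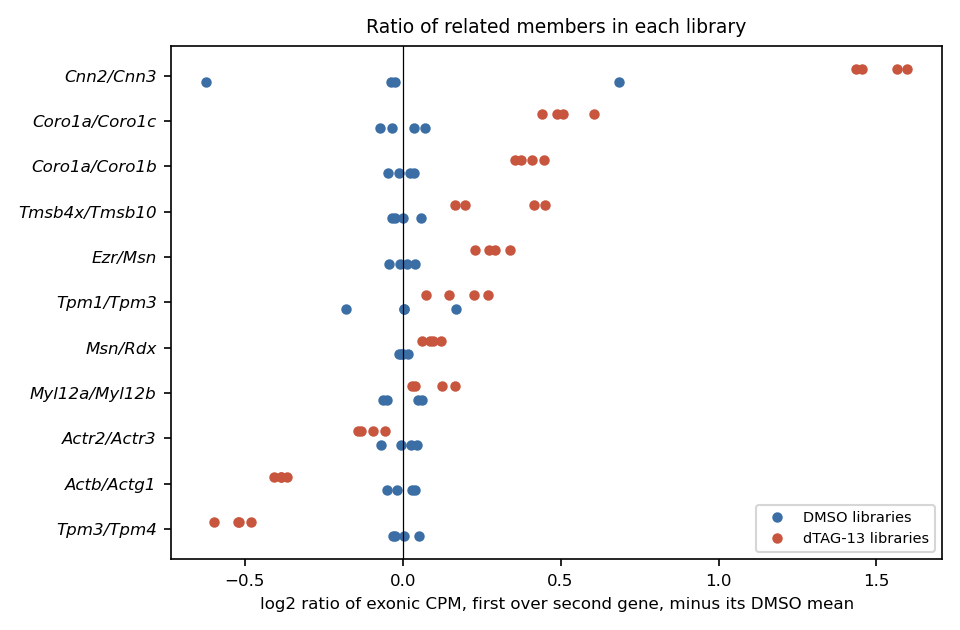
Log2 ratio of exonic CPM of the first over the second gene in each library, minus the DMSO mean of that ratio (horizontal axis), for 11 of the pairs of members, without Actn1 to Actn4. The 4 DMSO and 4 dTAG-13 points are apart in 8 pairs, among them Tpm3 to Tpm4 and Coro1a to Coro1c, and overlap in Actr2 to Actr3, Myl12a to Myl12b and Tpm1 to Tpm3.

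Other genes of the pathway were taken from 3 lists that hold no member. Of 19 tested genes of the WAVE complex and other nucleation factors, 4 rose and 3 fell, with a median of 0.04, shares near the 14.3% and 14% of all tested genes. The genes that fell were Cyfip2 and Nckap1l, which encode subunits of the WAVE complex of blood cells, and Arpc5l, the paralog of Arpc5. Cyfip2 fell by 0.39 (SE 0.03, edgeR adjusted p = 5.2e-10), Nckap1l by 0.20 (SE 0.04, edgeR adjusted p = 9.5e-05) and Arpc5l by 0.20 (SE 0.04, edgeR adjusted p = 1.0e-04). Baiap2, an adaptor of the WAVE complex, rose by 0.41 ± 0.07 (edgeR adjusted p = 1.3e-05). Of 31 tested other actin-binding proteins, 12 rose and 4 fell, beside 14.3% and 14% of all tested genes, with a median of 0.06. Gsn, which encodes the filament-severing gelsolin, fell by 1.41 (SE 0.09, edgeR adjusted p = 7.4e-13), and Coro2a by 0.76 (SE 0.04, edgeR adjusted p = 7.3e-14). Coro7 rose by 0.57 ± 0.04 (edgeR adjusted p = 5.1e-12) and Plec, which encodes the cytoskeletal linker plectin, by 0.39 ± 0.04 (edgeR adjusted p = 8.1e-09). In intronic reads Coro7 passed as higher (0.57 ± 0.07, edgeR adjusted p = 1.1e-06). Plec (0.12 ± 0.08, edgeR adjusted p = 0.384) and Baiap2 (0.18 ± 0.08, edgeR adjusted p = 0.128) did not pass there. Cyfip2, Nckap1l, Arpc5l, Gsn and Coro2a passed as lower in intronic reads.

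Of 8 tested genes of SRF and MRTF regulation, 2 rose and 2 fell, beside 14.3% and 14% of all tested genes. Srf rose by 0.29 ± 0.05 (edgeR adjusted p = 1.9e-05), from 89.8 ± 3.47 to 109 ± 7.76 CPM (SD, n = 4), and Mrtfb by 0.26 ± 0.04 (edgeR adjusted p = 2.1e-05). The SRF partners Elk3 and Elk4 fell by 0.48 (SE 0.04, edgeR adjusted p = 5.6e-11) and 0.26 (SE 0.03, edgeR adjusted p = 8.5e-07). In intronic reads Srf (0.36 ± 0.13, edgeR adjusted p = 0.0630) and Mrtfb (0.09 ± 0.07, edgeR adjusted p = 0.466) did not pass. Elk3 (-0.50 ± 0.07, edgeR adjusted p = 7.2e-06) and Elk4 (-0.24 ± 0.08, edgeR adjusted p = 0.0383) passed as lower there. The lists were not tested as sets.

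In the authors' deposited table, which lists 48 of the members, 28 were higher and 6 lower in exonic reads and 19 higher and 1 lower in intronic reads at an adjusted p below 0.05. Its header does not state the direction, and the sign of each of these calls is that of the change given here. The 1 exonic call that the table did not share was Swap70, with an adjusted p of 0.0716 in the authors' deposited table.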

How the data were processed

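Per the submitters' processing notes, featureCounts (Subread 2.0.0), DESeq2, deepTools 3.3.2, SAMtools 1.10 and the aligner STAR 2.7.4a were used on the builds GRCm38.p4 and mm10. No source used here gives the strand option at counting or the release of the gene models. The authors deposited exon counts and gene counts per gene for each library, as raw whole numbers. The authors' deposited table holds log2 fold changes, their standard errors (given as a score without further unit) and p-values with adjusted p-values. It was used for gene symbols and for side-by-side calls only.

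Intronic counts were gene counts minus exon counts, as the design text describes, and none was negative. Genes were kept by filterByExpr (minimum count 10, minimum total 15) and tested with the quasi-likelihood F test of edgeR 4.0.16 (R 4.3.3, TMM factors, 4 against 4 libraries, two-sided, Benjamini-Hochberg over all tested genes, threshold 0.05). The difference between exonic and intronic change was the interaction term of 1 model over 16 columns. Standard errors are the absolute log2 change divided by the square root of F. CPM use library totals scaled by the TMM factors, and shares of reads use unscaled totals. Exon lengths and coordinates come from GENCODE vM21 on GRCm38, in which 14 members have another ID version. The scripts were tested on simulated data. DESeq2 1.42.0 served as an alternative, beside other size factors, no filter, a test against 1.2-fold, whole-gene counts and leaving out each library.

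Values in every library are given for members that passed with a change of at least 0.3, for the 6 highest per length and for pairs that passed in opposite directions; of each pathway list, up to 4 genes of smallest p are named. Some pathway genes are not reported here. The members and lists were chosen with earlier results of these data known. Replicates differed by more than counting noise, with chi-square per degree of freedom of 4.76 to 13.4. Reads were 37269253 to 50980817 per library over genes.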

Additional observations from a re-analysis of the deposited data

Results flagged for a closer look

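In 92 groups of 4 libraries (46 members, 2 treatments), 8 held a library far from the other 3 in exonic CPM, by a gap that chance gives in about 1 in 20 groups. In DMSO, Wdr1 was at 234 CPM in replicate 2 with the others at 224 to 225, Was at 99.3 CPM in replicate 3 with the others at 105 to 106, and Tpm3 at 280.4 CPM in replicate 3 with the others at 293 to 294. With dTAG-13, Lasp1 was at 96.9 CPM in replicate 4 with the others at 102, and Myl12b at 107 CPM in replicate 4 with the others at 123 to 126. Myl6 was at 76.3 CPM in dTAG-13 replicate 3 with the others at 72.7 to 72.9. Msn was at 619 CPM in dTAG-13 replicate 1 with the others at 578 to 582, and Rdx at 165 CPM in the same library with the others at 148 to 151.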

How the results depend on the processing

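The 28 higher and 7 lower members in exonic reads became 28 and 7 with DESeq2 size factors or without Gm26917 and Gm42418, 28 and 6 with the DESeq2 Wald test or with no filter, and 27 to 29 and 3 to 7 when 1 library was left out. Leaving out 1 library gave 1667 to 1821 higher and 1592 to 1853 lower among all genes. Of the 35 exonic calls, 29 were kept each time. Against 1.2-fold, 13 members were higher and 1 lower, and 601 and 486 of all genes. In whole-gene counts 28 members were higher and 3 lower (Arpc5, Coro1c and Swap70). Cfl1, Coro1b, Arpc4, Tagln2, Tln1 and Marcksl1 missed the threshold there, and Capg and Lsp1 passed.

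In intronic reads, leaving out 1 library gave 17 to 20 higher and 1 to 3 lower members, 804 to 927 higher and 743 to 957 lower genes, and kept 17 of 20 calls. Against 1.2-fold, 8 members were higher, and 418 genes were higher and 362 lower. With exonic library sizes 8 members were higher, and 416 genes were higher and 428 lower. The intronic value of Myl6, which did not pass, was 0.09, and ranged from -0.033 (without dTAG-13 replicate 2, where its sign turned) to 0.18. For the exonic against the intronic change, no filter gave 2 lower members (Lsp1 and Marcksl1), 56 higher and 47 lower genes, against 16 and 15, and leaving out 1 library gave 0 to 1 lower members, 3 to 12 higher and 7 to 11 lower genes. The causes were not tested.

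With the replicate number as a block, 28 members were higher and 7 lower in exonic reads, 20 and 1 in intronic reads, and 26 and 3 in whole-gene counts. Same-numbered libraries deviated together with correlations of -0.02 to 0.05, and 2 of 4 DMSO libraries correlated best with their own number, so the block was read as a shared number only. Depth limits Actn1, Cnn2, Tpm1 and Vcl in exonic reads and Pfn1 and Tmsb4x in intronic reads, whose errors are the widest.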
